A study of Mus musculus with 21 samples.

Results

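Amino acid transporter genes of the Slc1, Slc3, Slc7, Slc36, Slc38 and Slc43 families were followed across 7 mouse glioma stem-like cell lines. They were chosen by name, as the protein-coding genes whose symbols belong to these families, with the astrocytic glutamate carriers Slc1a2 and Slc1a3 and the cystine carrier Slc7a11 left out. This gave 39 of the 54532 genes measured, or 39 of 22046 protein-coding genes. There were 14 members from Slc7, 11 from Slc38, 5 from Slc1, 4 from Slc36, 3 from Slc43 and 2 from Slc3.

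Carriers of these families move amino acids across the plasma membrane and the membrane of the lysosome. Slc7 light chains such as Slc7a5 need an Slc3 heavy chain, mostly Slc3a2 (CD98), to reach the cell surface, where they exchange large neutral amino acids such as leucine for glutamine. Slc1a5, Slc38a1 and Slc38a2 bring neutral amino acids including glutamine into the cell, and the cationic carriers Slc7a1, Slc7a2 and Slc7a3 bring in arginine and lysine. When amino acids run short, the transcription factor ATF4 raises the transcription of many of these genes, and lysosomal carriers report amino acid supply to the kinase complex mTORC1.

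The 4 IDH1 mutant lines (mutant lines for short) were PIC144-1, PIC144-3, PIC496-3 and PIC496-4, and the 3 IDH1 WT lines (WT lines) were PC134-0, PC308-1 and PC326-1. All were derived from brain tumours of genetically engineered mice and had no treatment. They grew on low-adherence plates at 5% oxygen in NeuroCult medium with EGF and bFGF at 20 ng/mL each, heparin, antibiotics, amphotericin B and Plasmocin. Polyadenylated RNA of 3 libraries per line was sequenced, and the authors deposited FPKM. In FPKM the fragments of a gene are divided by its length and by a size set for the library. The labels name no allele besides IDH1, and the genotype was taken from them because FPKM do not show an allele. They do not say whether lines that share a number (PIC144, PIC496) came from the same animal.

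The 21 libraries held 15011668 to 21966351 fragments. All 9 markers of glioma stem-like or progenitor cells were found, with Vim highest at a mean of 491 FPKM, and their sum was 1586 to 2675 FPKM in IDH1 mutant lines and 1674 to 2152 FPKM in IDH1 WT lines. The summed endothelial markers stayed at or below 2.30 FPKM in IDH1 mutant and 2.41 FPKM in IDH1 WT lines, with Cldn5 at 0, and the lymphocyte markers at or below 0.196 and 0.117 FPKM, with Cd3d and Ms4a1 at 0. Mature oligodendrocyte markers summed to 0.172 to 0.771 FPKM in IDH1 mutant and 0.269 to 1.23 FPKM in IDH1 WT lines. In a bulk sample, fewer cells of a type and less RNA per cell cannot be told apart.

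Because ATF4 acts on several of these genes, the promoters of members were searched for TGATGCAA, a form of the element that ATF4 binds together with C/EBP proteins. Windows from 250 bases before to 50 bases after the start, from RefSeq on GRCm38.p6, were found for 28 of the 39 members, and both strands were read. The element stood in 3 of the 39 windows of these 28 genes (7.69%), 1 of Slc1a4 and 2 overlapping ones of Slc7a7 that share the same match, against 294 of all 32851 promoter windows (0.895%). The looser form TGATGNAA, in which N is any base, includes the first. It was found in the same 3 windows and in 3.97% of all windows. The Slc7a7 window printed below also holds TGATGAAA, a match to the looser form only, 141 bases before the start and left in small letters. Slc1a5, Slc7a2, Slc7a3, Slc7a4, Slc7a5, Slc7a12, Slc7a13, Slc36a2, Slc38a1, Slc38a3 and Slc43a3 had no entry. A window of each gene is shown because it holds the match to TGATGCAA, which is marked in capitals. Each is written 5′ to 3′ on the minus strand up to 30 bases after the start, for Slc1a4 from chr11:20332684-20332963 and for Slc7a7 from chr14:54417915-54418194.
Slc1a4: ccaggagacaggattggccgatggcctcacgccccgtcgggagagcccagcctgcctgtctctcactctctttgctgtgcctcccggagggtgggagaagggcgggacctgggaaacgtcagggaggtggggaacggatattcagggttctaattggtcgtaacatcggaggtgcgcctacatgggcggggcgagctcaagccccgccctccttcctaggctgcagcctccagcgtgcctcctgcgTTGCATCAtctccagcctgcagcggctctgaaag
Slc7a7: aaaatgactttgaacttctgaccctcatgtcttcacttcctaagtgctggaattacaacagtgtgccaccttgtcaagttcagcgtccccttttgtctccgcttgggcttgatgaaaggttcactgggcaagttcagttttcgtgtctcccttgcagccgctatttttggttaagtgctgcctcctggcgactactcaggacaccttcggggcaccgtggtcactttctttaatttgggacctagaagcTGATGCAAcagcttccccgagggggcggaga
In Slc1a4 the match reads TTGCATCA, the element on the other strand, and begins 4 bases before the annotated start. In the Slc7a7 window shown it begins 1 base before it. A second Slc7a7 window, from a start further downstream, holds the same match 243 bases before that start and is not shown. A match describes the letters of the window and does not show binding. The genes differed widely in level, with a mean over the 7 lines of 61.4 FPKM for Slc1a4 and 0.410 FPKM for Slc7a7.

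Transcripts of the family were dominated by a few genes. Over the 7 lines, 10 of the 39 members averaged above 10 FPKM and 17 above 1 FPKM, whereas 14 did not reach 0.5 FPKM in any line. The order from the top was Slc7a5 at 228 FPKM, Slc3a2 at 121 FPKM, Slc38a2 at 82.5 FPKM, Slc1a4 at 61.4 FPKM, Slc7a1 at 35.7 FPKM and Slc38a1 at 27.0 FPKM. Slc38a3, a glutamine carrier of the so-called system N, followed at 26.7 FPKM and Slc38a10 at 25.4 FPKM. The level of Slc7a5 exceeded that of Slc3a2 in each of the 7 lines, but further down the order changed between lines. Slc1a4 was above Slc38a2 in PC326-1 (80.7 and 63.9 FPKM). Slc38a1 was above Slc7a1 in PC134-0 (25.8 and 24.8 FPKM) and PC308-1 (41.5 and 35.8 FPKM). The ranges of line means of Slc38a1, Slc38a3 and Slc38a10 overlapped too. The order of these genes was therefore not separated by the spread between lines. The summed FPKM of all members was 564, 625, 721 and 834 in PIC144-1, PIC144-3, PIC496-3 and PIC496-4, against 540, 701 and 712 in PC134-0, PC308-1 and PC326-1. The sum averaged 686 ± 118 FPKM for mutant lines (SD, n = 4) and 651 ± 96.2 FPKM for WT lines (SD, n = 3), and the groups overlapped.

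**Figure D1:**
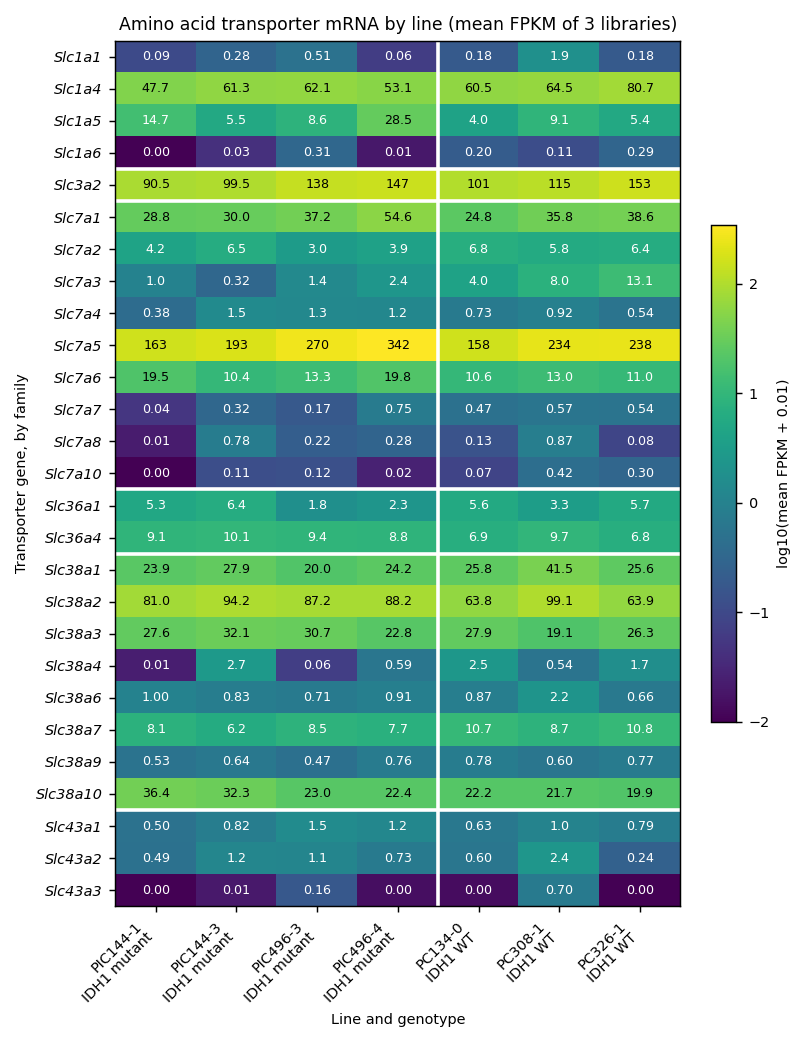
Mean FPKM of 3 libraries in each line (columns, IDH1 mutant left of the white line and IDH1 WT right of it) for every member (rows, by family) that reached at least 0.1 FPKM in a line, coloured by log10 of FPKM + 0.01. Slc7a5 was the highest member in all 7 lines, at 163 to 342 FPKM in IDH1 mutant lines and 158 to 238 FPKM in IDH1 WT lines.

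Genotypes were compared on log2(FPKM + 0.5) averaged within each line, with limma over 13379 genes that had at least 0.5 FPKM in at least 3 lines, and adjusted for multiple testing by Benjamini-Hochberg. Of the members, 22 passed this filter on low values. None of the 22 was called at an adjusted p under 0.05, when 0.112% of all tested genes were (15 genes). At an unadjusted p under 0.05 there were 2 members, both lower in mutant lines (Slc7a3 and Slc38a7), a share of 9.09% against 12.8% of all genes, of which 6.12% were higher and 6.73% lower. With limma voom on recovered fragments, 0 members were called, but so were 0 of all 13379 genes. That setting therefore says nothing particular to the members. An unadjusted p under 0.05 in voom was found for 3 of the 22 members and for 1643 of the 13379 genes. Line values did not overlap between genotypes for 3 members, 13.6% of those tested, against 13.2% of all genes. Slc38a10 was the 1 member higher in mutant lines and Slc7a3 and Slc38a7 the 2 lower ones, when 6.81% of all genes were higher and 6.37% lower without overlap. The difference was above 0 for 11 members and below 0 for 11, and its median was -0.02 on the log2 scale, against 0.01 over all tested genes. A missed call does not show equal levels: for Slc7a5 the 95% interval of the log2 difference ran from -0.49 to 0.83.

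**Figure D2:**
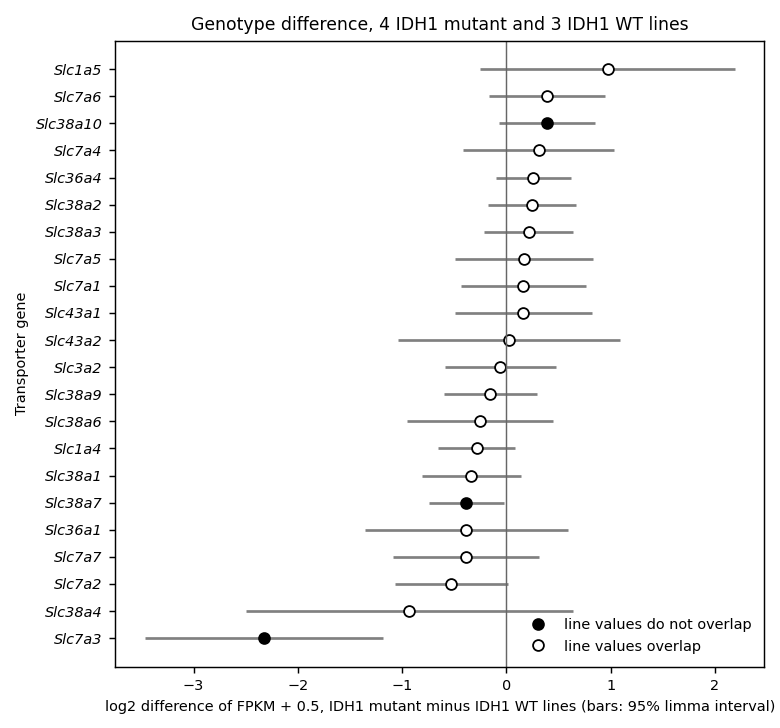
Difference of log2(FPKM + 0.5), IDH1 mutant minus IDH1 WT (x axis), for the 22 tested members (y axis), with bars for the 95% limma interval over 4 IDH1 mutant and 3 IDH1 WT lines. The intervals of Slc7a3 and Slc38a7 lie below 0 and those of the other 20 include it, and filled circles mark the 3 members whose line values do not overlap.

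The cationic amino acid carriers gave the member with the smallest p. Slc7a3 (CAT3), which lies on chromosome X from 101079210 to 101086020 on the minus strand (GRCm38), carries arginine and lysine and is best known from brain. In IDH1 mutant lines its libraries had 0.845, 1.11 and 1.06 FPKM in PIC144-1, 0.300, 0.347 and 0.320 FPKM in PIC144-3, 1.36, 1.36 and 1.41 FPKM in PIC496-3, and 2.06, 2.73 and 2.28 FPKM in PIC496-4. In IDH1 WT lines they had 3.49, 4.84 and 3.78 FPKM in PC134-0, 8.54, 8.09 and 7.33 FPKM in PC308-1, and 13.6, 13.7 and 11.9 FPKM in PC326-1. Every IDH1 mutant library was below every IDH1 WT library, and within each genotype the lines also stood apart. Line means averaged 1.27 ± 0.848 FPKM for mutant lines (SD, n = 4) and 8.37 ± 4.53 FPKM for WT lines (SD, n = 3). The log2 difference was -2.32 (SE 0.492), with a limma p of 0.00165 and an adjusted p of 0.207, so it was not called. With 35 ways to split the lines, the exact permutation test (two-sided) gave p = 0.0286, the smallest this design allows. The count behind these levels was 68 fragments in PIC144-3, the lowest line, and 2435 in PC326-1, the highest.

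What else differed between the genotypes is given beside Slc7a3. The median log2 difference of the genes on chromosome X was -0.04. The median deviation of 10 tested genes of chromosome Y was -1.50 to -0.89 in IDH1 mutant lines and 0.74 to 2.24 in IDH1 WT lines, on the log2 scale from the mean of all lines. Of the marker lists, the 5 mature astrocyte markers summed to 14.3 to 18.4 FPKM in IDH1 mutant lines and 20.4 to 32.3 FPKM in IDH1 WT lines, and the 9 microglia or macrophage markers to 0.0993 to 0.257 and 0.282 to 1.38 FPKM, with C1qa and C1qb at 0. The sums of neither list overlapped between the genotypes, and their part in the result was not tested. Neuron markers summed to 0.280 to 9.23 FPKM in IDH1 mutant and 2.38 to 4.98 FPKM in IDH1 WT lines, and fibroblast or pericyte markers to 1.10 to 15.2 and 0.421 to 1.54 FPKM, and these overlapped.

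Slc7a1 (CAT1), the widely used arginine and lysine carrier, did not share this pattern. It averaged 28.8, 30.0, 37.2 and 54.6 FPKM in PIC144-1, PIC144-3, PIC496-3 and PIC496-4, against 24.8, 35.8 and 38.6 FPKM in PC134-0, PC308-1 and PC326-1. The groups overlapped, PIC496-4 was highest and PC134-0 lowest, and the log2 difference of 0.16 (adjusted p = 0.804 with limma) was just below 0 without either of those lines. The ratio of Slc7a3 to Slc7a1 in FPKM was 0.0349, 0.0107, 0.0370 and 0.0430 in the same IDH1 mutant lines and 0.162, 0.223 and 0.339 in the IDH1 WT lines. It was 1 of 3 ratios between relatives, with those of Slc1a5 to Slc1a4 and Slc38a2 to Slc38a1, which were chosen with the levels known and are given without a test. Among all 190 pairs of the 20 tested members above 0 in every library, the ratio did not overlap between genotypes for 27 (14.2%).

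Slc7a2 (CAT2), the third cationic carrier, averaged 4.18, 6.51, 3.04 and 3.91 FPKM in PIC144-1, PIC144-3, PIC496-3 and PIC496-4 and 6.83, 5.83 and 6.42 FPKM in PC134-0, PC308-1 and PC326-1. PIC144-3 lay among the IDH1 WT lines and the other 3 IDH1 mutant lines below them. The group means were 4.41 ± 1.48 FPKM (SD, n = 4 IDH1 mutant lines) and 6.36 ± 0.504 FPKM (SD, n = 3 IDH1 WT lines), with a log2 difference of -0.53 (SE 0.233, limma adjusted p = 0.395). Slc7a4, a relative of these carriers with no settled transport activity, was at 0.384, 1.47, 1.28 and 1.23 FPKM in mutant lines and 0.730, 0.922 and 0.543 FPKM in WT lines in the same order.

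**Figure D3:**
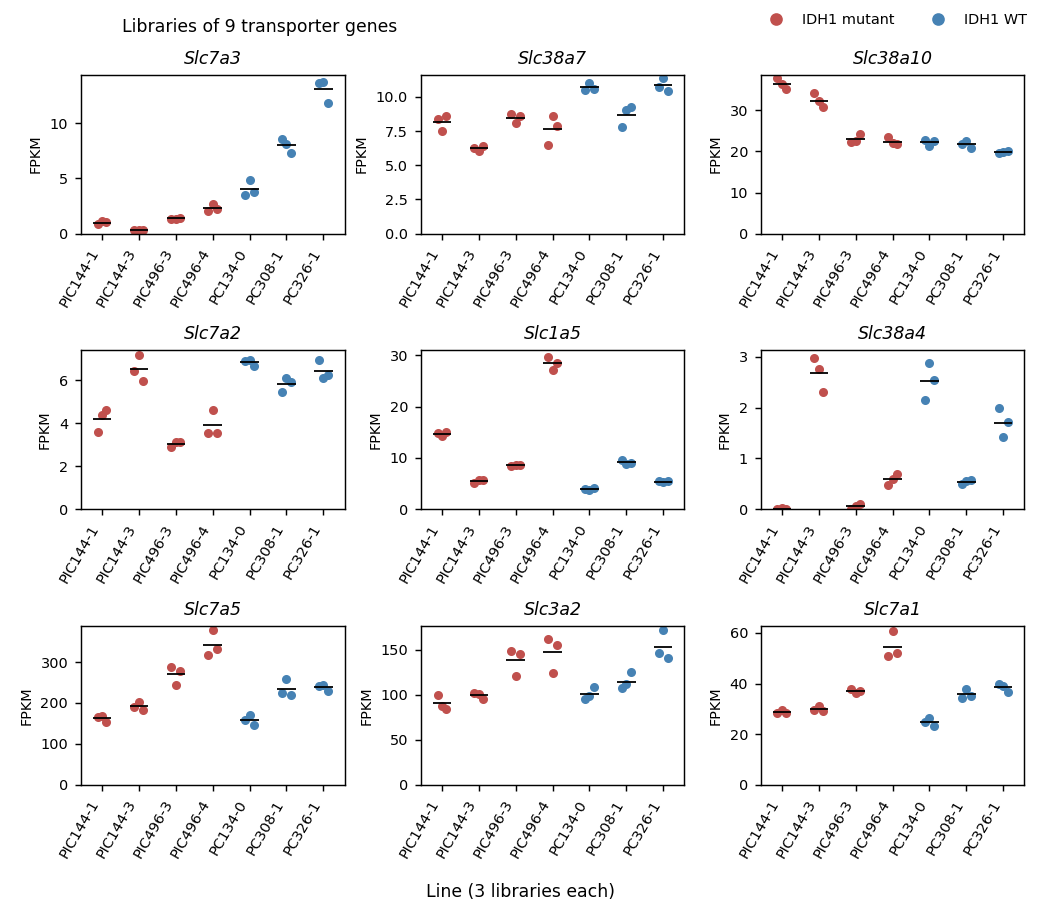
FPKM (y axes, from 0) of each library (points) with the mean of 3 libraries (bars) in 4 IDH1 mutant lines (red, left) and 3 IDH1 WT lines (blue, right) for 9 members. Slc7a3 was at 2.73 FPKM or less in IDH1 mutant libraries and at 3.49 FPKM or more in IDH1 WT libraries, whereas the points of Slc1a5, Slc38a4, Slc7a5, Slc3a2 and Slc7a1 of the genotypes overlap.

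The heteromeric exchangers were the most abundant group. Slc7a5 (LAT1), the main importer of leucine and other large neutral amino acids, averaged 163, 193, 270 and 342 FPKM in PIC144-1, PIC144-3, PIC496-3 and PIC496-4 and 158, 234 and 238 FPKM in PC134-0, PC308-1 and PC326-1. The groups overlapped, with the lowest level in an IDH1 WT line and the highest in an IDH1 mutant line. Group means were 242 ± 80.5 FPKM for mutant lines (SD, n = 4) and 210 ± 45.2 FPKM for WT lines (SD, n = 3), a log2 difference of 0.17 (limma adjusted p = 0.818). Slc7a5 made up 28.9% to 40.9% of the summed FPKM of all members in IDH1 mutant lines and 29.2% to 33.5% in IDH1 WT lines.

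Its heavy chain Slc3a2 averaged 90.5, 99.5, 138 and 147 FPKM in mutant lines and 101, 115 and 153 FPKM in WT lines, in the same order. The group means of 119 ± 28.1 FPKM (SD, n = 4) and 123 ± 27.2 FPKM (SD, n = 3) differed by less than the spread between lines (log2 difference -0.06, limma adjusted p = 0.927). The other heavy chain, Slc3a1 (rBAT), pairs with Slc7a9, and the pair carries cystine and cationic amino acids in kidney. Slc3a1 had 30 fragments in all 21 libraries, at 0.0432 and 0.0255 FPKM in IDH1 mutant and IDH1 WT lines. It overlaps Prepl on the opposite strand, at 16.3 FPKM, and whether counting used strand is not given in the sources used here, so such low values of overlapping genes are uncertain.

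The light chains among the members that pair with Slc3a2 are Slc7a5, Slc7a6, Slc7a7, Slc7a8 and Slc7a10, and their summed FPKM was set over that of Slc3a2. The ratio was 2.02 ± 0.154 in PIC144-1, 2.05 ± 0.0663 in PIC144-3, 2.05 ± 0.0631 in PIC496-3 and 2.52 ± 0.608 in PIC496-4, against 1.69 ± 0.216 in PC134-0, 2.18 ± 0.295 in PC308-1 and 1.64 ± 0.137 in PC326-1 (SD, n = 3 libraries each). PC308-1 lay within the range of the IDH1 mutant lines and the other IDH1 WT lines below it. Slc7a5 gave 89.3% to 95.1% of the light chain sum in IDH1 mutant lines and 93.3% to 95.2% in IDH1 WT lines.

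**Figure D4:**
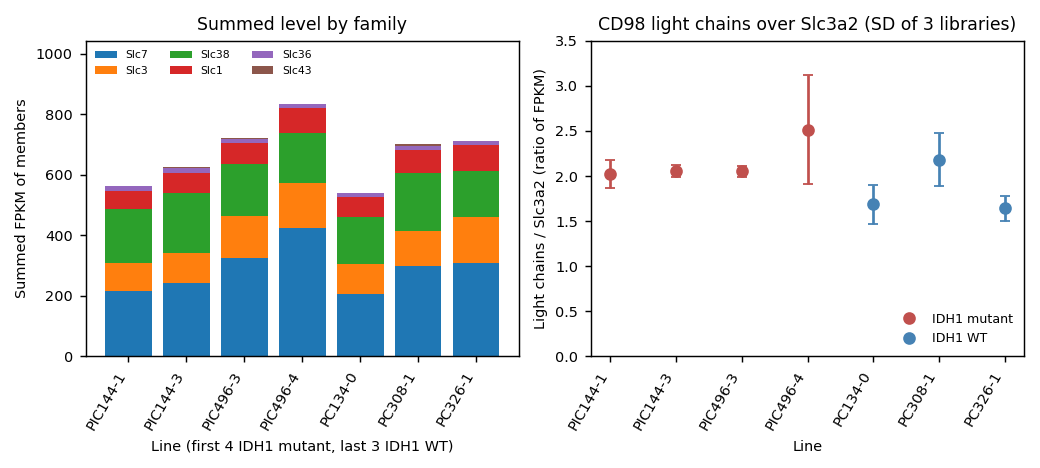
Left, summed FPKM of the members of each family (stacked bars, y axis from 0) in 4 IDH1 mutant and 3 IDH1 WT lines. Right, ratio of the summed FPKM of 5 light chains to that of Slc3a2, as the mean and SD of 3 libraries, which was 2.02 to 2.52 in IDH1 mutant and 1.64 to 2.18 in IDH1 WT lines.

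Slc7a6 (y+LAT2), which exchanges cationic for neutral amino acids, was at 19.5, 10.4, 13.3 and 19.8 FPKM in PIC144-1, PIC144-3, PIC496-3 and PIC496-4 and had 10.6, 13.0 and 11.0 FPKM in PC134-0, PC308-1 and PC326-1. The lines PIC144-1 and PIC496-4 stood above all others, and PIC144-3 was lowest, next to PC134-0. Its relative Slc7a7 (y+LAT1), with the promoter match printed above, was at 0.0430, 0.322, 0.174 and 0.753 FPKM in mutant lines and 0.473, 0.571 and 0.536 FPKM in WT lines. Slc7a7 overlaps Oxa1l, at 18.4 FPKM, on the opposite strand, and Slc7a10 overlaps Lrp3, at 9.24 FPKM. Slc7a8 (LAT2), which was not tested, reached 0.782 FPKM in PIC144-3 and 0.867 FPKM in PC308-1 and was at or below 0.281 FPKM in the other lines.

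Among the neutral amino acid carriers of the Slc1 family, Slc1a4 (ASCT1), an exchanger of alanine, serine and cysteine, was abundant in every line. It averaged 47.7, 61.3, 62.1 and 53.1 FPKM in PIC144-1, PIC144-3, PIC496-3 and PIC496-4 and 60.5, 64.5 and 80.7 FPKM in PC134-0, PC308-1 and PC326-1. The group means were 56.0 ± 6.89 FPKM (SD, n = 4) and 68.6 ± 10.7 FPKM (SD, n = 3), and the log2 difference was -0.29 (SE 0.160, limma adjusted p = 0.476). Slc1a5 (ASCT2), a glutamine importer, averaged 14.7, 5.49, 8.56 and 28.5 FPKM in mutant lines and 4.01, 9.12 and 5.40 FPKM in WT lines. PIC496-4 and PIC144-1 stood above every IDH1 WT line, while PIC144-3 and PIC496-3 lay among them. The log2 difference was 0.97 (SE 0.526, limma adjusted p = 0.461), and 0.56 without PIC496-4. The ratio of Slc1a5 to Slc1a4 overlapped between genotypes, at 0.309, 0.0896, 0.138 and 0.538 in mutant lines and 0.0664, 0.141 and 0.0670 in WT lines, in the same order.

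Slc1a1, a glutamate carrier of neurons, was not tested and reached 1.90 ± 0.205 FPKM in PC308-1 (SD, n = 3 libraries), against 0.0571 to 0.508 FPKM in mutant lines and 0.182 and 0.185 FPKM in the other IDH1 WT lines. Slc1a6 and Slc1a7, further glutamate carriers, stayed at or below 0.313 FPKM in IDH1 mutant and 0.292 FPKM in IDH1 WT lines.

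In the Slc38 family, Slc38a2 (SNAT2), a sodium-coupled importer that is induced when amino acids are scarce, averaged 81.0, 94.2, 87.2 and 88.2 FPKM in PIC144-1, PIC144-3, PIC496-3 and PIC496-4 and 63.8, 99.1 and 63.9 FPKM in PC134-0, PC308-1 and PC326-1. PC308-1 was above and the other IDH1 WT lines were below all IDH1 mutant lines. Group means were 87.7 ± 5.37 FPKM for mutant lines (SD, n = 4) and 75.6 ± 20.4 FPKM for WT lines (SD, n = 3), with a log2 difference of 0.24 (limma adjusted p = 0.579).

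Slc38a1 (SNAT1), a glutamine importer whose gene lies 44.5 kb from Slc38a2 on chromosome 15, averaged 23.9, 27.9, 20.0 and 24.2 FPKM in mutant lines and 25.8, 41.5 and 25.6 FPKM in WT lines, in the same order. PC308-1 was the highest line for both genes, and the genotypes overlapped for both. Group means of Slc38a1 were 24.0 ± 3.22 FPKM (SD, n = 4) and 31.0 ± 9.11 FPKM (SD, n = 3), a log2 difference of -0.34 (limma adjusted p = 0.506) that was -0.11 without PC308-1. Within a line the ratio of Slc38a2 to Slc38a1 in FPKM was 3.40 ± 0.107 in PIC144-1, 3.38 ± 0.125 in PIC144-3, 4.36 ± 0.128 in PIC496-3 and 3.65 ± 0.0878 in PIC496-4 (SD, n = 3 libraries each). It was 2.48 ± 0.125 in PC134-0, 2.40 ± 0.152 in PC308-1 and 2.50 ± 0.0841 in PC326-1. The 3 WT lines had ratios below every mutant line, although neither gene separated the genotypes alone. Of the 136 pairs of tested members that were above 0 in every library and overlapped between genotypes alone, 4 had ratios that did not overlap (2.94%). This pair is among those 4 and was chosen with the levels known. The share over pairs of all tested genes was not computed, so the separation is not shown to be unusual.

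Slc38a4 (SNAT4), the next gene on chromosome 15 and imprinted in mouse, was near 0 in PIC144-1 and PIC496-3. It averaged 0.0139, 2.68, 0.0582 and 0.592 FPKM in PIC144-1, PIC144-3, PIC496-3 and PIC496-4 and 2.52, 0.541 and 1.70 FPKM in PC134-0, PC308-1 and PC326-1. Both genotypes held lines with high and with low levels. In PIC144-1 the level rested on 3 fragments in 3 libraries, in PIC496-3 on 13, and in PIC144-3 on 633. The log2 difference between genotypes was -0.93 (SE 0.675, limma adjusted p = 0.562). It depended on how low values were treated, with -1.76 at a pseudocount of 0.1, -0.63 at a pseudocount of 1 and -2.67 with voom, and ranged from -1.49 without PIC144-3 to -0.60 without PC134-0.

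Slc38a7 (SNAT7), which exports glutamine and asparagine from the lysosome, averaged 8.14, 6.23, 8.46 and 7.66 FPKM in PIC144-1, PIC144-3, PIC496-3 and PIC496-4 and 10.7, 8.68 and 10.8 FPKM in PC134-0, PC308-1 and PC326-1. All IDH1 mutant line means lay below all IDH1 WT line means, but single libraries overlapped, with 8.75 FPKM in PIC496-3 and 7.80 FPKM in PC308-1. Group means were 7.62 ± 0.985 FPKM for mutant lines (SD, n = 4) and 10.1 ± 1.21 FPKM for WT lines (SD, n = 3). The log2 difference was -0.38 (SE 0.156), with a limma p of 0.0399 and an adjusted p of 0.373, and the exact permutation test (two-sided) gave its smallest p of 0.0286.

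Slc38a10, a member of the family whose function is poorly known, was the only tested member with higher values in every IDH1 mutant line, at 36.4, 32.3, 23.0 and 22.4 FPKM in PIC144-1, PIC144-3, PIC496-3 and PIC496-4, against 22.2, 21.7 and 19.9 FPKM in PC134-0, PC308-1 and PC326-1. The PIC144 lines were well above the rest, whereas the PIC496 lines were next to PC134-0, with overlapping libraries (22.2 to 24.2 FPKM in PIC496-3, 21.3 to 22.8 FPKM in PC134-0). Group means were 28.5 ± 6.96 FPKM (SD, n = 4) and 21.2 ± 1.24 FPKM (SD, n = 3), a log2 difference of 0.39 (SE 0.198, limma adjusted p = 0.439, exact two-sided permutation p = 0.143).

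Slc38a3 (SNAT3) was at 27.6, 32.1, 30.7 and 22.8 FPKM in mutant lines and 27.9, 19.1 and 26.3 FPKM in WT lines in the same order, and overlapped between them. Slc38a9, the lysosomal arginine sensor of mTORC1, stood at 0.467 to 0.762 FPKM in IDH1 mutant lines and 0.603 to 0.782 FPKM in IDH1 WT lines. Slc38a6, a less studied member, was at 0.714 to 0.997 FPKM in IDH1 mutant lines and had 0.869, 2.18 and 0.662 FPKM in PC134-0, PC308-1 and PC326-1. Its gene is on chromosome 12, whose genes had a median log2 deviation from the mean of all lines of 0.49 in PC308-1, -0.49 in PC134-0 and -0.48 in PC326-1. How much of the level in PC308-1 goes with that shift was not tested.

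The proton-coupled carrier Slc36a1 (PAT1), which acts at the lysosome, split the IDH1 mutant lines by number. It averaged 5.27, 6.43, 1.78 and 2.34 FPKM in PIC144-1, PIC144-3, PIC496-3 and PIC496-4 and 5.62, 3.33 and 5.68 FPKM in PC134-0, PC308-1 and PC326-1. Both PIC496 lines were below all other lines, whereas PIC144-1 lay among the WT lines and PIC144-3 above them. The log2 difference between genotypes was -0.39 (SE 0.419, limma adjusted p = 0.701), and it ranged from -0.65 without PIC144-3 to -0.12 without PIC496-3. Slc36a4 (PAT4), its relative, was at 8.83 to 10.1 FPKM in IDH1 mutant lines and at 6.84 to 9.67 FPKM in IDH1 WT lines, with PC308-1 above the other 2 WT lines.

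In the Slc43 family, Slc43a2 (LAT4), which carries leucine and other neutral amino acids without a heavy chain, averaged 0.487, 1.19, 1.13 and 0.734 FPKM in PIC144-1, PIC144-3, PIC496-3 and PIC496-4 and 0.601, 2.38 and 0.244 FPKM in PC134-0, PC308-1 and PC326-1. The highest and the lowest line were both IDH1 WT, and the log2 difference of 0.02 (limma adjusted p = 0.988) had no stable direction across alternatives. Slc43a1 (LAT3) was at 0.498 to 1.50 FPKM in IDH1 mutant lines and 0.631 to 1.04 FPKM in IDH1 WT lines. Slc43a3, known as a carrier of purine nucleobases, reached 0.700 FPKM in PC308-1 and was not tested.

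Of the 17 members that did not pass the filter, Slc1a1, Slc7a8 and Slc43a3 reached 0.5 FPKM in a line, and all 3 were highest in PC308-1. Slc7a9, Slc7a12 and Slc36a3 had no fragment in any library. For Slc7a9, which pairs with Slc3a1, a count of 0 allows up to 0.0224 FPKM in PIC144-1 and 0.0228 FPKM in PC326-1, taking 3 fragments per line as the limit. The other 11 members stayed under 0.5 FPKM in every line, among them Slc7a10, which carries small neutral amino acids and D-serine, with 0.424 FPKM in PC308-1 as its highest.

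Lines of the same genotype differed for most tested members. A limma F test over the 21 libraries asked whether the 4 IDH1 mutant lines had equal levels, and separately the 3 IDH1 WT lines. It called 20 of the 22 tested members among IDH1 mutant lines (90.9%, against 80.7% of all tested genes) and 18 of 22 among IDH1 WT lines (81.8%, against 61.4%). Slc36a4 and Slc38a6 were not called among IDH1 mutant lines, with adjusted p of 0.245 and 0.114 in limma. Slc7a2, Slc7a4, Slc7a7 and Slc38a9 were not called among IDH1 WT lines, with limma adjusted p of 0.155, 0.0763, 0.712 and 0.127. The p-values of this test measure the spread between libraries of a line. The labels call these libraries biological replicates, and their spread may still be partly technical.

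With a largest difference between lines of at least 1 on the log2 scale also required, 8 members were called among IDH1 mutant lines, 36.4% against 25.5% of all genes. They were Slc38a4 with 2.63, Slc1a5 with 2.27, Slc7a3 with 1.79, Slc36a1 with 1.60, Slc7a7 with 1.20, Slc7a4 with 1.16, Slc7a5 with 1.06 and Slc43a1 with 1.00 between their highest and lowest IDH1 mutant line. Among IDH1 WT lines there were 5 such members, 22.7% against 12.9% of all genes. They were Slc43a2 with 1.96, Slc7a3 with 1.59, Slc38a4 with 1.53, Slc38a6 with 1.20 and Slc1a5 with 1.09. Slc7a3, Slc38a4 and Slc1a5 were in both groups. The median of the largest difference over tested members was 0.83 among IDH1 mutant lines and 0.56 among IDH1 WT lines, against 0.65 and 0.41 over all tested genes.

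Line PIC496-4 was the highest line for 5 tested members, Slc1a5, Slc7a1, Slc7a5, Slc7a6 and Slc7a7, and the lowest for 0. PIC144-3 was also the highest for 5, but for others, among them Slc36a1, Slc38a3 and Slc38a4. PIC144-1 was the highest for 1 member, Slc38a10, and the lowest for 6. In IDH1 WT lines, PC308-1 was the highest for 4 members (Slc38a1, Slc38a2, Slc38a6 and Slc43a2) and PC326-1 for 4 (Slc1a4, Slc3a2, Slc7a3 and Slc38a7). How often each line was highest or lowest over all tested genes was not computed. These counts are therefore not shown to be particular to the members.

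**Figure D5:**
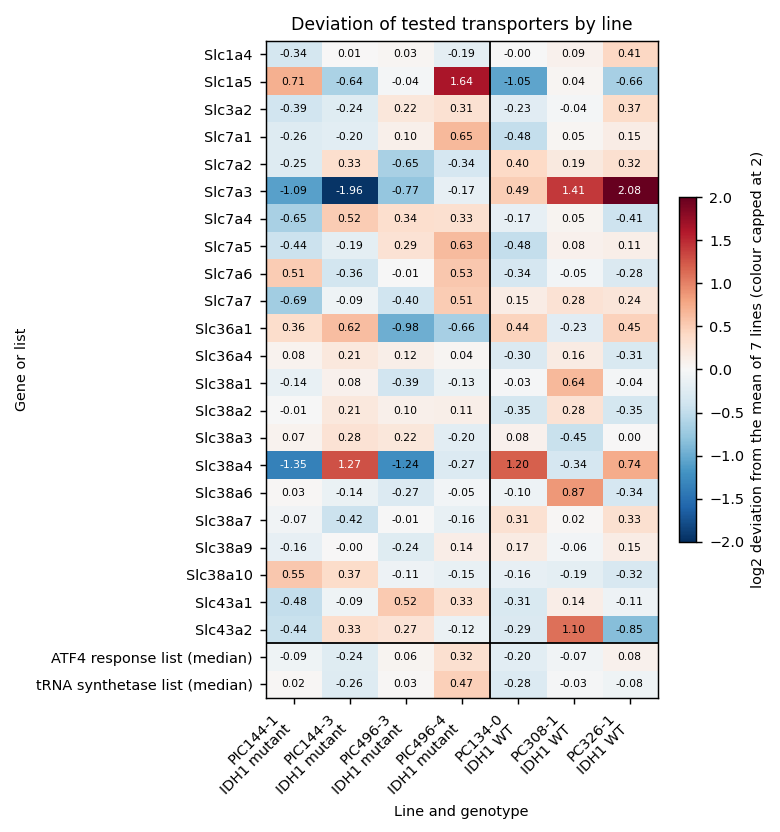
Deviation of each of the 22 tested members from its mean over 7 lines, in log2(FPKM + 0.5), by line (IDH1 mutant left, IDH1 WT right), with the medians of the ATF4 response and tRNA synthetase lists in the last rows. PIC496-4 was above the mean for Slc1a5, Slc7a1, Slc7a5 and both lists, but below it for others such as Slc1a4 (-0.192) and Slc36a1 (-0.664). Its median over the 22 tested members was -0.008. Slc7a3 was below its mean in all 4 mutant lines and above it in all 3 WT lines.

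Other genes of amino acid supply were compared in the same fit. The list for the ATF4 response also holds Atf4 itself and the kinases Eif2ak1, Eif2ak2, Eif2ak3 and Eif2ak4, which act upstream of it. Of its 28 tested genes, 0 were called, with 2 at an unadjusted p under 0.05 in limma, when 12.8% of all tested genes had one. These were Pycr1, an enzyme of proline synthesis, and the transcription factor Atf5. Pycr1 averaged 10.7 ± 1.27 FPKM in IDH1 mutant and 17.8 ± 6.14 FPKM in IDH1 WT lines, and Atf5 34.0 ± 13.2 and 55.7 ± 10.2 FPKM (SD, n = 4 and 3). The median log2 difference of this list was 0.01, and its median deviation by line was highest in PIC496-4 (0.32) and lowest in PIC144-3 (-0.24).

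Of 20 tested cytosolic tRNA synthetases, which load amino acids onto tRNA, 0 were called and 15 had a difference above 0, when 50.9% of all tested genes did. Their median log2 difference was 0.24. An unadjusted p under 0.05 in limma was found for 1 of them, when 12.8% of all tested genes had one. It was Vars, for valine, with 61.6 ± 17.2 FPKM for mutant lines (SD, n = 4) and 37.8 ± 2.66 FPKM for WT lines (SD, n = 3). The median deviation of the list was 0.02, -0.26, 0.03 and 0.47 in PIC144-1, PIC144-3, PIC496-3 and PIC496-4, and -0.28, -0.03 and -0.08 in PC134-0, PC308-1 and PC326-1. PIC496-4, the line with the highest Slc7a5 and Slc7a1, stood above the rest, and PIC144-3 was near PC134-0, the lowest. Over the 22 tested transporters, the median deviation of PIC496-4 was -0.008. Of 37 tested genes of amino acid sensing by mTORC1, 0 were called and 1, Lamtor5, had an unadjusted p under 0.05 (log2 difference 0.40), with a list median of 0.04. Of 14 tested amino acid carriers of other families, 0 were called and 1, the mitochondrial carrier Slc25a29, had an unadjusted p under 0.05 in limma (log2 difference 0.65), with a list median of 0.04. For the sensing genes and these carriers too, the share of all tested genes at that p was 12.8%.

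The 3 carriers left out by name were not called either. Slc1a2 averaged 4.67 ± 3.68 FPKM in IDH1 mutant lines and 8.18 ± 5.93 FPKM in IDH1 WT lines, Slc1a3 46.5 ± 14.5 and 57.6 ± 19.5 FPKM, and Slc7a11 6.11 ± 3.20 and 3.67 ± 0.951 FPKM (SD, n = 4 and 3).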

How the data were processed

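The values are the authors' deposited FPKM. Per the submitters' processing notes HISAT2 and mm39 were used. Not given in the sources used here are the read counter, its annotation and its strand setting. The file's coordinates are those of GRCm38: 38 of 39 members match GENCODE release 21, Slc3a1 being the exception. Values under 1000 fragments were whole multiples of 1 fragment within 0.05 (100% of them), so counts were recovered. The library size behind the FPKM was 0.957 (PIC144-3, replicate 2) to 1.05 (PC134-0, replicate 3) of the summed gene fragments. It was thus not a plain fragment total in every library, and how it was set is not given in the sources used here. Other per-sample columns numbered 0. Intervals and limits from counts cover counting error only.

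Lines were the replicates of a genotype and libraries those of a line. Tests used limma 3.58.1 in R 4.3.3 (trend and robust) on log2(FPKM + 0.5), at least 0.5 FPKM in at least 3 of 7 lines, Benjamini-Hochberg adjusted p under 0.05, and figures matplotlib 3.10.9. Fold changes are on that scale, which understates low genes. The p-values measure only the spread between these lines or libraries. The members and lists were chosen with earlier results of these data known. Named in full were the 6 members with the smallest p, the 6 highest, the 6 with the widest range between lines, and the Slc3 heavy chains. In the lists, the genes with an unadjusted p under 0.05 were named after their values were seen. Both tests were run on simulated data (13379 genes, 200 of them changed, 10 runs). The genotype test over 7 lines recovered 34.7% of changes of 1 and 79.8% of changes of 2 on the log2 scale, with 6.7 false calls a run. The F test over the 4 IDH1 mutant lines was given changes in PIC144-1 only. It recovered 62.1% of changes of 0.5 and 90.7% of changes of 1 on the log2 scale, with 8.8 false calls a run. Replicate numbers are not known to pair the libraries. Of 63 pairs with the same number, 14 had correlated deviations over 0.1 (r from -0.124 to 0.292). Pairs with different numbers were not compared, so this cannot decide whether the numbers pair them. Alternatives were other pseudocounts, filters, scalings and replicate units, voom, and leaving out each line or replicate. Chosen after seeing the data was the log2 of line-mean FPKM.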

Additional observations from a re-analysis of the deposited data

Results flagged for a closer look

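Slc7a4, a relative of the cationic amino acid carriers, stood apart in 1 line. PIC144-1 had 0.384 FPKM, against 1.47, 1.28 and 1.23 FPKM in PIC144-3, PIC496-3 and PIC496-4, the other IDH1 mutant lines, and 0.730, 0.922 and 0.543 FPKM in WT lines PC134-0, PC308-1 and PC326-1. On the scale of log2(FPKM + 0.5), its gap to the nearest IDH1 mutant line was 0.838 of the range of that group, above Dixon's critical value for 4 samples at 95%. On FPKM itself the gap was 0.784 of the range, below that value, so the line stands apart by this measure on the log scale only. Chance passes this value in about 1 of 20 groups, and 1 of the 22 tested members did. The value rested on 80 fragments in 3 libraries, of 0.508, 0.361 and 0.282 FPKM.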

How the results depend on the processing

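Over 23 alternative settings, 324 of 342 log2 differences of 15 named genes kept their direction and their side of the threshold. With 21 libraries and the line as a random effect, 1 member was called, Slc7a3 (-2.32, adjusted p = 0.000254), when 552 of all genes were called in place of 15. With the replicate block added the count was also 1 (adjusted p = 0.000468) and 440 of all genes were called. The replicate block left the counts among IDH1 mutant and IDH1 WT lines at 20 and 18, and the numbers are not known to pair the libraries. Over all alternatives the adjusted p of Slc7a3 ranged from 0.000254 to 0.601, and leaving out a line gave -2.74 (without PC134-0) to -1.95 (without PC326-1). No member was called when any line or replicate was left out. Of all genes, 3 to 48 were called without a line and 15 to 17 without a replicate. The cause of these moves was not tested. Requiring a difference of at least 1 between lines gave 8 and 5 members, fewer by construction. Leaving out a replicate gave 18 to 20 members among IDH1 mutant and 16 among IDH1 WT lines. Small differences turned direction: Slc7a5 (leaving out lines: -0.0263 to 0.34) to -0.0191 without PIC496-4 and -0.0263 without PC134-0, Slc7a1 (-0.0298 to 0.28) to -0.0298 without PIC496-4 and -0.0295 without PC134-0, Slc38a6 (-0.49 to 0.11) to 0.11 without PC308-1, and Slc3a2 (-0.19 to 0.11) to 0.06 without PIC144-1, 0.02 without PIC144-3, 0.11 without PC326-1 and 0.01 without replicate 2. Slc43a2 (-0.40 to 0.58) turned to -0.0223 at a pseudocount of 1, -0.0354 with chromosome medians subtracted, -0.09 without PIC144-3, -0.07 without PIC496-3, -0.12 without PC134-0, -0.40 without PC326-1 and -0.05 without replicate 2. Depth limits Slc7a7 most among tested members, with 496 fragments in all libraries.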
